A study of Arabidopsis thaliana with 9 samples.

Results

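The dark-inducible sugar starvation genes of Arabidopsis thaliana were followed in seedlings that had been fed sucrose. They are 6 of the 33602 genes listed for each library and were picked by gene identifier: ASN1 (also DIN6, AT3G47340), SEN1 (also DIN1, AT4G35770), BGLU30 (also DIN2, AT3G60140), DIN4 (AT3G13450), DIN10 (AT5G20250) and TPS8 (AT1G70290). The rule uses identifiers and no measured value, but the genes were chosen with earlier results of these data known. The seedlings were 9 days old, grew on 1/2 MS medium with 2% sucrose and formed 3 groups of 3 libraries. OE2 and OE1 overexpress CsGSTF1, a glutathione S-transferase gene of tea, and tt19-8 is a knock-out of TT19, a glutathione S-transferase gene needed for anthocyanin to accumulate. The title of the series speaks of restoring anthocyanin in tt19-8, but the labels do not say in which background OE1 and OE2 were made, which promoter drives CsGSTF1, or under what light the seedlings grew. All 3 groups had sucrose, and the libraries used here hold no wild type and no dark or sugar-free group, so the comparisons are between genotypes and not between fed and starved plants. The labels do not say whether the libraries of a group came from separate cultures, so p-values measure only the spread between these libraries.

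In plants, a loss of sugar, as in prolonged darkness, switches on genes that release carbon from amino acids, storage sugars and cell walls, and feeding sugar represses them. The kinase SnRK1, with the catalytic subunits KIN10 and KIN11, is a main regulator of this switch and acts partly through bZIP transcription factors. The DIN genes were named for their induction in leaves kept in the dark, and ASN1 (DIN6) is widely used as a marker of SnRK1 activity. ASN1 encodes a glutamine-dependent asparagine synthetase, which stores nitrogen in a carbon-poor amide, and DIN4 a beta subunit of the E1 component of branched-chain keto acid dehydrogenase, a step in the breakdown of leucine, isoleucine and valine. BGLU30 is a beta-glucosidase of glycoside hydrolase family 1, and DIN10 is annotated among the raffinose synthase-like proteins. TPS8 is a class II trehalose phosphate synthase-like protein, and SEN1 a senescence-associated rhodanese-like protein.

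Levels are FPKM, fragments per kilobase of gene scaled to library size, and 5 of the 6 genes passed the filter for testing (1 FPKM or more in 3 or more libraries), as did 18232 genes in all. Low values of the OE1 and tt19-8 libraries lay on steps of whole fragments that correspond to totals of 48.46 to 57.46 M fragments per library. OE2 values lay on no steps, so how deeply OE2 was sequenced is not known. The values of OE2 were tied to those of OE1. The deviations of same-numbered OE2 and OE1 libraries from their group means correlated across genes at 0.953 to 0.959, and the ratio of OE2 to OE1 was the same within 1% in all 3 numbered pairs for 4301 of 18111 genes above 0 FPKM in these libraries (23.7%), against 5 and 10 genes when the numbers were shifted. Which step produced this tie was not tested, and OE2 cannot be read as a line measured independently of OE1. The limma fit of all 9 libraries takes them as independent, so its p-values, also those against tt19-8, do not allow for the tie. TT19 was below 1 FPKM in every library, at 0.864, 0.674 and 0.876 FPKM in OE2 and 0, 0.0769 and 0.0712 FPKM in OE1, against 0.113, 0.0399 and 0 FPKM in tt19-8. Marker sums differed between libraries. The summed FPKM of 5 leaf markers ran from 13090 to 18669 in OE2, from 17342 to 25279 in OE1 and from 19198 to 20644 in tt19-8, with none of the 5 at 0. RBCS1A made up most of that sum and did not pass in any of the 3 comparisons, LHCB1.1 rose in OE2 against tt19-8 (log2 change 1.23, limma adjusted p = 0.00581) and against OE1 (1.20, 0.0132), and PGK1 fell in OE2 against tt19-8 (-0.76, 0.0256). The sum of 6 root markers ran from 2843 to 4658 in OE2, from 3847 to 6426 in OE1 and from 2711 to 8298 in tt19-8, with none of the 6 at 0, and 4 of them fell in OE2 against tt19-8 by limma. In that comparison 14.5% of all tested genes fell. The sum of 5 seed storage genes ran from 13.2 to 62.8 in OE2, from 2.30 to 64.9 in OE1 and from 91.5 to 570 in tt19-8, and 2 of the 5 were at 0 in every OE1 library. In whole seedlings, fewer cells of a type and less RNA per cell cannot be told apart, and the part of tissue makeup in the results was not tested. Replicate 3 of tt19-8 stood apart, in that leaving it out took the calls of OE1 against tt19-8 to 3136, against 3 with it. Calls that changed without it among the 6 genes are given beside them. For the gene lists such calls are given beside the gene or only within counts per list.

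The sequences just before the annotated starts show how the genes differ in the short motifs that sugar and SnRK1 signalling are known to use. Each window holds the 250 bases upstream of the RefSeq gene start in TAIR10.1, read 5′ to 3′ on the gene's own strand. The motifs searched on both strands were CACGTG (the G-box), ACGT (the core bound by many bZIP proteins, also inside every G-box), TATCCA (known from sugar-starved cereal amylase promoters), TTATCC (a sugar-repressive element) and ACTCAT (an element bound by bZIP proteins in proline catabolism genes). Capitals mark the matches. ASN1 is shown because it held the most kinds of motif (chr3:17441432-17441681, reverse strand), SEN1 because it held TTATCC more than once (chr4:16944628-16944877, forward strand), DIN10 as the highest gene of the group (chr5:6833314-6833563, forward strand), and BGLU30 as the gene that differed most between the groups (chr3:22216290-22216539, forward strand).
ASN1: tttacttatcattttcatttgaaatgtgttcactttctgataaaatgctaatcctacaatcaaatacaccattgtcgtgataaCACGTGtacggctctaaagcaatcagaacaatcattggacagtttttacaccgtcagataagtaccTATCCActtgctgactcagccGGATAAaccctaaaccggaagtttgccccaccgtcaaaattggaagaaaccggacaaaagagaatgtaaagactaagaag
SEN1: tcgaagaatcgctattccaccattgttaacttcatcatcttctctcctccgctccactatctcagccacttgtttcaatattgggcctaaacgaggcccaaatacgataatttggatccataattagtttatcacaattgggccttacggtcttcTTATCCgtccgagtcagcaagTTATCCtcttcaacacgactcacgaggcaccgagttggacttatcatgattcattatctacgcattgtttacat
DIN10: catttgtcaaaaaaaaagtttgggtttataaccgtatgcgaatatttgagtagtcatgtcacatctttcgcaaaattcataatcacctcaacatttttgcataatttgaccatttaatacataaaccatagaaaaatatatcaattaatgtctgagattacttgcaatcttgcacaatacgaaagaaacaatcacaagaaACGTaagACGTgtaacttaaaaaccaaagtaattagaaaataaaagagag
BGLU30: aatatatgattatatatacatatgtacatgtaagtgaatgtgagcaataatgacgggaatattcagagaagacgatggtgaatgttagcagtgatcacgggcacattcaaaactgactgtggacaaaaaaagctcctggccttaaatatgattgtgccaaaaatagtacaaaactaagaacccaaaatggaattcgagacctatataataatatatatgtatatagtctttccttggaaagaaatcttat
The ASN1 window held CACGTG 167 bases, TATCCA 101 bases and TTATCC, as its reverse complement GGATAA, 80 bases upstream of the start. SEN1 held TTATCC 95 and 74 bases upstream, and DIN10 held ACGT 50 and 43 bases upstream. DIN4 and TPS8, whose windows are not shown, each held 1 ACGT, 56 bases upstream in DIN4 and 82 bases upstream in TPS8. In the BGLU30 window none of the 5 motifs was found. Over the 6 genes, CACGTG was in 1, ACGT in 4, TATCCA in 1, TTATCC in 2 and ACTCAT in 0. Among 27443 windows of the same length the shares with each motif were 6.49% for CACGTG, 44.1% for ACGT, 13.6% for TATCCA, 12.5% for TTATCC and 12.3% for ACTCAT, so ACGT in particular is common everywhere.

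In these sucrose-fed seedlings the 6 genes did not move together. BGLU30 was higher in OE2 than in both other groups, DIN10 was lower in OE2 than in tt19-8, and ASN1, DIN4 and TPS8 did not pass against tt19-8 in the fit without a replicate block. SEN1 was too low to be tested. Differences are limma log2 changes of FPKM + 1, called at an adjusted p below 0.05. In OE2 against tt19-8, 1 of the 5 tested genes was higher and 1 was lower, where the comparison called 19% of all tested genes (4.5% higher and 14.5% lower). In OE1 against tt19-8, 0 of 5 passed with limma, where 0.0165% of all genes did. At an unadjusted p below 0.05, 1 of the 5 genes passed there, beside 19% of all genes. In OE2 against OE1, 1 of 5 was higher, where 1.43% of all genes were called and 1.39% were higher. The median log2 change of the 5 genes was -0.45 in OE2 and -0.31 in OE1 against tt19-8, and the medians over all genes were -0.18 and -0.11. With median-ratio scaling the median of the 5 genes was -0.22 in OE2 and -0.19 in OE1 against tt19-8. These comparisons share the tt19-8 libraries. With median-ratio scaling the median of all genes moved up by 0.21 in OE2 against tt19-8, 0.11 in OE1 against tt19-8 and 0.10 in OE2 against OE1, and the split of calls in OE2 against tt19-8 turned from 821 higher and 2646 lower to 1371 higher and 796 lower (11.9% of all tested genes called). BGLU30 kept its calls and DIN10 did not pass with that scaling.

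The genes also differed widely in level. DIN10 was the highest in every group, at 115 FPKM in OE2 and 142 FPKM in OE1, against 202 FPKM in tt19-8, which put it above 93.1%, 93.4% and 95.2% of the tested genes of those groups. DIN4 and ASN1 came next in OE1 and tt19-8, and their library ranges overlapped each other in all 3 groups. BGLU30 lay below TPS8 in every OE1 and tt19-8 library of the same group, but in OE2 its range reached those of DIN4 and ASN1. SEN1 was the lowest in every group, below 1 FPKM in all 9 libraries.

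**Figure D1:**
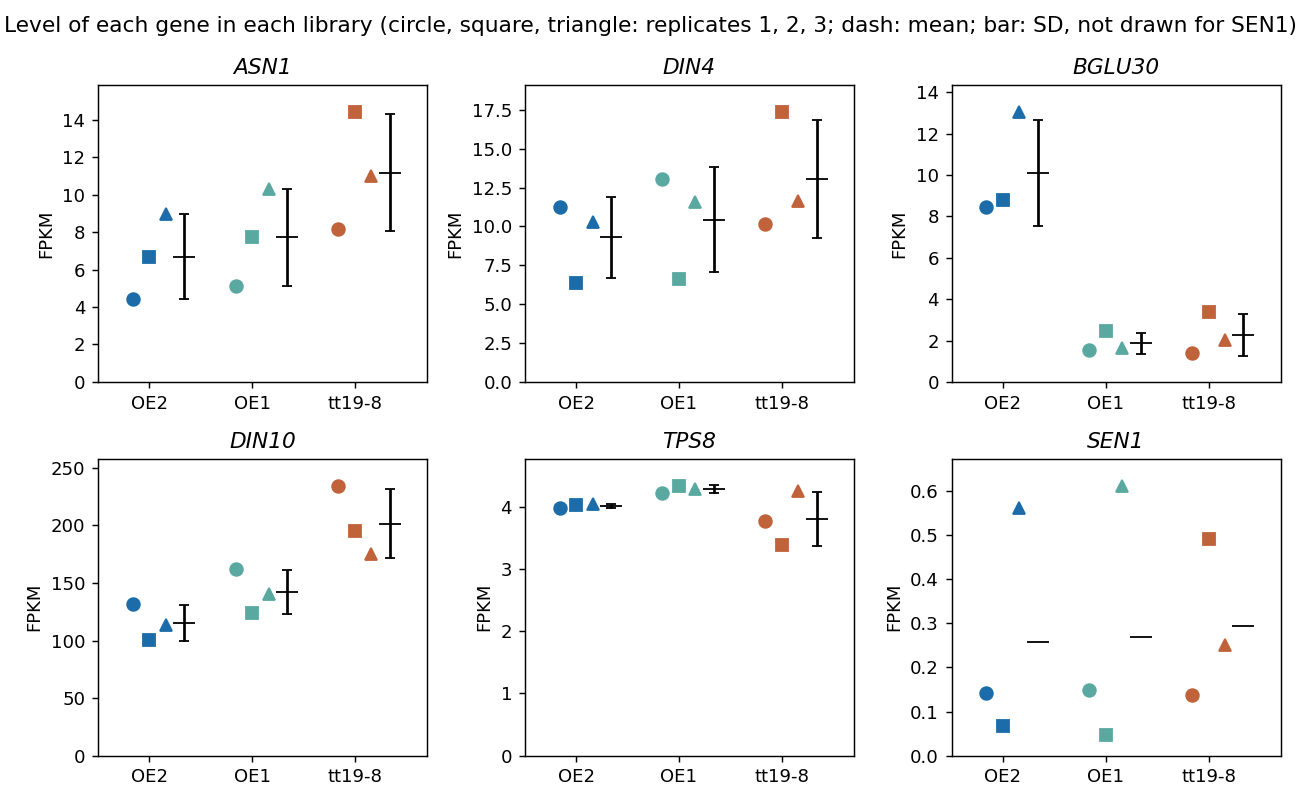
FPKM of each of the 6 genes (vertical axes, linear, each from 0) in OE2, OE1 and tt19-8. Circles, squares and triangles are replicates 1, 2 and 3, dashes are group means and bars are SD of 3 libraries (not drawn for SEN1); the 3 OE2 points of BGLU30 sit between 8.47 and 13.1 FPKM, above every OE1 and tt19-8 point.

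Of the genes that act on amino acids, ASN1 (chromosome 3, 17437840 to 17441431, reverse strand) had 4.44, 6.69 and 8.95 FPKM in OE2 replicates 1, 2 and 3. It had 5.12, 7.72 and 10.3 FPKM in OE1, against 8.14, 14.4 and 11.0 FPKM in tt19-8. The lowest tt19-8 library lay inside the ranges of both other groups, so the groups overlapped. The mean was 6.69 ± 2.26 FPKM in OE2 and 7.72 ± 2.60 FPKM in OE1, against 11.2 ± 3.14 FPKM in tt19-8 (SD, n = 3 each). The log2 change was -0.67 ± 0.29 (SE) in OE2 against tt19-8, with a limma adjusted p of 0.126. In OE1 against tt19-8 it was -0.49 ± 0.29, with a limma adjusted p of 0.362. With the replicate block over all 9 libraries the OE2 change was of the same size and passed (limma adjusted p = 0.0304). That fit called 4872 of 18232 tested genes. It blocks tt19-8 by replicate numbers that showed no pairing with the other groups, and the tie of OE2 to OE1 enters its spread. A short stretch of the gene, bases 17441421 to 17441431, is shared with the gene AT3G47341 on the opposite strand, and the labels do not say whether strand was used in counting.

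DIN4 (chromosome 3, 4382198 to 4384436, reverse strand) had 11.3, 6.34 and 10.3 FPKM in OE2 and 13.1, 6.65 and 11.6 FPKM in OE1, against 10.2, 17.4 and 11.6 FPKM in tt19-8. In OE2 and OE1 replicate 2 was the low library, and in tt19-8 it was the high one. The mean was 9.30 ± 2.61 FPKM in OE2 and 10.4 ± 3.36 FPKM in OE1, against 13.1 ± 3.80 FPKM in tt19-8 (SD, n = 3 each). The log2 change was -0.45 ± 0.29 in OE2 against tt19-8 (limma adjusted p = 0.286) and -0.31 ± 0.29 in OE1 against tt19-8 (limma adjusted p = 0.555). The groups overlapped in each comparison. DIN4 overlaps TBP1, on the opposite strand, in bases 4382198 to 4382224.

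Of the genes that act on sugars and glycosides, BGLU30 (chromosome 3, 22216540 to 22220824, forward strand, DIN2 in RefSeq) had 8.47, 8.78 and 13.1 FPKM in OE2. It had 1.55, 2.46 and 1.63 FPKM in OE1, against 1.41, 3.36 and 2.03 FPKM in tt19-8. Every OE2 library was above every library of the other groups, and OE1 and tt19-8 overlapped. Of all tested genes, 9.35% lay wholly higher in OE2 than in tt19-8 in this way, and 7.04% wholly higher in OE2 than in OE1. The mean was 10.1 ± 2.56 FPKM in OE2 and 1.88 ± 0.505 FPKM in OE1, against 2.27 ± 0.998 FPKM in tt19-8 (SD, n = 3 each). BGLU30 rose in OE2 against tt19-8 by a log2 change of 1.78 ± 0.25 (limma adjusted p = 0.00364), with 4.45-fold higher means and a log2 change above that of 99.7% of all tested genes. It rose in OE2 against OE1 by 1.94 ± 0.25 (limma adjusted p = 0.00331), a 5.38-fold difference of the means. In OE1 against tt19-8 the log2 change was -0.15 ± 0.25 (limma adjusted p = 0.753). BGLU30 overlaps no annotated gene. Of the beta-glucosidases with adjacent family numbers BGLU29, BGLU31 and BGLU32 were at or near 0 FPKM. BGLU28, the only one tested, averaged 33.7 FPKM in OE2 and 23.3 FPKM in OE1, against 27.3 FPKM in tt19-8, with a log2 change of 0.37 ± 0.26 in OE2 against tt19-8 (limma adjusted p = 0.338). Without replicate 3 of tt19-8 that change of BGLU28 was 0.70 and passed (0.0186).

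DIN10 (chromosome 5, 6833564 to 6836862, forward strand) had 131, 100.4 and 114 FPKM in OE2 and 162, 124 and 140 FPKM in OE1, against 235, 195 and 175 FPKM in tt19-8. All libraries of OE2 and of OE1 were below all libraries of tt19-8, while OE2 and OE1 overlapped. Groups that did not overlap with tt19-8, in the lower direction, were found for 27.7% of all tested genes in OE2 and for 13.3% in OE1. The mean was 115 ± 15.6 FPKM in OE2 and 142 ± 19.3 FPKM in OE1, against 202 ± 30.3 FPKM in tt19-8 (SD, n = 3 each). DIN10 fell in OE2 against tt19-8, with a log2 change of -0.80 ± 0.17 (limma adjusted p = 0.0155) and a ratio of means of 0.571. In OE1 against tt19-8 the log2 change was -0.50 ± 0.17 with a ratio of means of 0.705, and it did not pass (limma adjusted p = 0.196). Without replicate 3 of tt19-8, the lowest library of that group, the OE1 change was -0.60 and passed (limma adjusted p = 0.0482), in a fit that called 17.2% of all genes. The OE2 call ended with median-ratio scaling (-0.56, limma adjusted p = 0.0537) and without OE2 replicate 2 (-0.71, 0.0512), OE2 replicate 3 (-0.80, 0.0549), tt19-8 replicate 1 (-0.69, 0.0576) or tt19-8 replicate 2 (-0.82, 0.0511). Its direction was lower in each of these. The last bases of DIN10, 6836781 to 6836862, overlap AT5G20260 on the opposite strand.

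TPS8 (chromosome 1, 26470795 to 26474833, reverse strand) was the steadiest of the 6 genes in the overexpressing lines. It had 3.98, 4.02 and 4.04 FPKM in OE2 and 4.22, 4.34 and 4.29 FPKM in OE1, against 3.77, 3.39 and 4.25 FPKM in tt19-8. The mean was 4.01 ± 0.028 FPKM in OE2 and 4.28 ± 0.059 FPKM in OE1, against 3.80 ± 0.432 FPKM in tt19-8 (SD, n = 3 each). The tt19-8 libraries spanned a range that held all of OE2 and part of OE1. All OE2 libraries were below all OE1 libraries, as for 14.7% of all tested genes. The log2 change was 0.07 ± 0.14 in OE2 against tt19-8 (limma adjusted p = 0.774) and 0.14 ± 0.14 in OE1 against tt19-8 (limma adjusted p = 0.596). Neither difference passed.

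SEN1 (chromosome 4, 16944878 to 16946266, forward strand) did not pass the filter. It had 0.142, 0.0682 and 0.562 FPKM in OE2 and 0.148, 0.0472 and 0.611 FPKM in OE1, against 0.138, 0.490 and 0.250 FPKM in tt19-8. Replicate 3 was the high library in OE2 and OE1, and replicate 2 in tt19-8. With 1297 bases of exon these values correspond to about 9, 3 and 43 fragments in OE1 and 9, 31 and 19 fragments in tt19-8, and 3 fragments correspond to 0.0403 to 0.0477 FPKM by library. SEN1 was therefore detected in every library of these groups, in some of them by only a few fragments. With no filter on low values its log2 change was -0.05 in OE2 and -0.04 in OE1 against tt19-8, with limma adjusted p of 0.909 and 0.968.

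**Figure D2:**
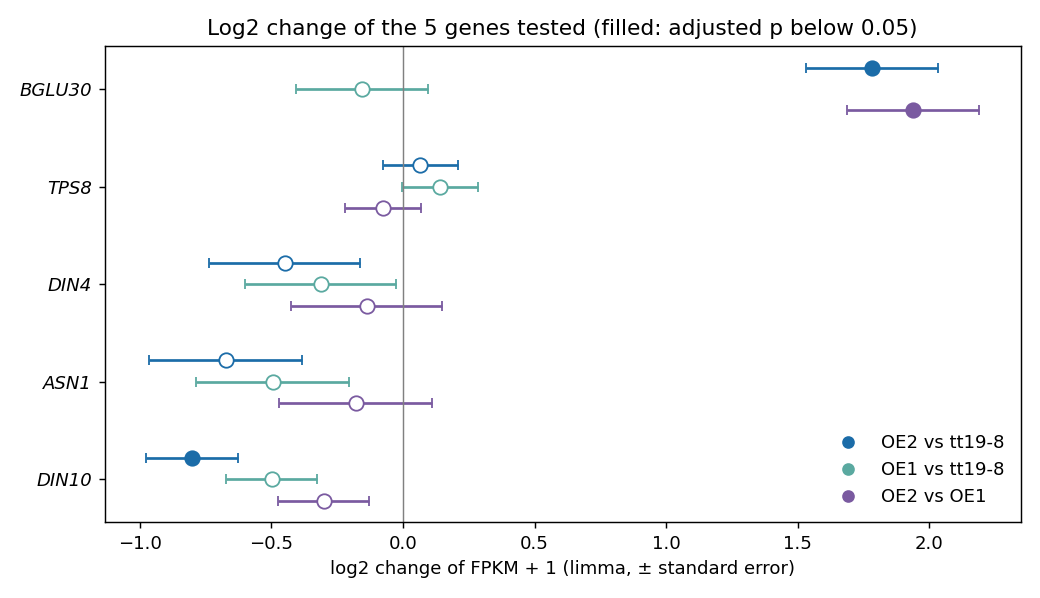
Limma log2 change of FPKM + 1 (horizontal axis) of the 5 tested genes, with bars of 1 standard error, for OE2 against tt19-8, OE1 against tt19-8 and OE2 against OE1. Filled points have an adjusted p below 0.05: BGLU30 at 1.78 and 1.94 in the comparisons that hold OE2, and DIN10 at -0.80 in OE2 against tt19-8.

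The tie between OE2 and OE1 was visible gene by gene. The ratio of OE2 to OE1 for ASN1 was 0.867, 0.866 and 0.867 in replicates 1, 2 and 3, so that the largest ratio exceeded the smallest by 0.122%. The OE1 values of ASN1 rest on about 681, 1074 and 1548 fragments, which alone carry a counting error of 3.83%, 3.05% and 2.54%. For DIN10 the ratio was 0.809, 0.810 and 0.811, a spread of 0.194%, beside a counting error of 0.638% to 0.714% in OE1. Both ratios thus varied by less than the counting error of the OE1 values. For TPS8 it was 0.944, 0.927 and 0.941, a spread of 1.77%, and for DIN4 0.862, 0.953 and 0.889, a spread of 10.6%. SEN1 had ratios of 0.958, 1.45 and 0.919. BGLU30 was the exception in size and in spread, with ratios of 5.46, 3.57 and 8.03.

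Because same-numbered OE2 and OE1 libraries are paired in this way, the comparison of OE2 with OE1 was also fitted with the replicate number as a block. Without the block the log2 change of ASN1 was -0.18 ± 0.29, that of DIN4 -0.14 ± 0.29, that of DIN10 -0.30 ± 0.17 and that of TPS8 -0.08 ± 0.14, and none of these passed (the lowest limma adjusted p, 0.596, was that of DIN10). With the replicate block on these 2 groups alone, ASN1 (limma adjusted p = 0.000970), DIN10 (6.02e-05) and TPS8 (0.0100) were lower in OE2, BGLU30 was higher, and DIN4 did not pass (0.0510). That made 4 of 5 genes called, in a fit that called 66.5% of all tested genes. The p-values of that fit rest on the tie between the 2 groups and are not replicated evidence of a lower level. Summed over all genes, the OE2 libraries held 867529 to 912535 FPKM and the OE1 libraries 1032370 to 1079860 FPKM. The block was not fitted to values scaled for this difference. The direction of TPS8 turned to 0.02 with median-ratio scaling. The median same-number ratio over all genes was 0.940, and none of the 18111 genes above 0 FPKM in these libraries had a same-number ratio below 0.601.

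**Figure D3:**
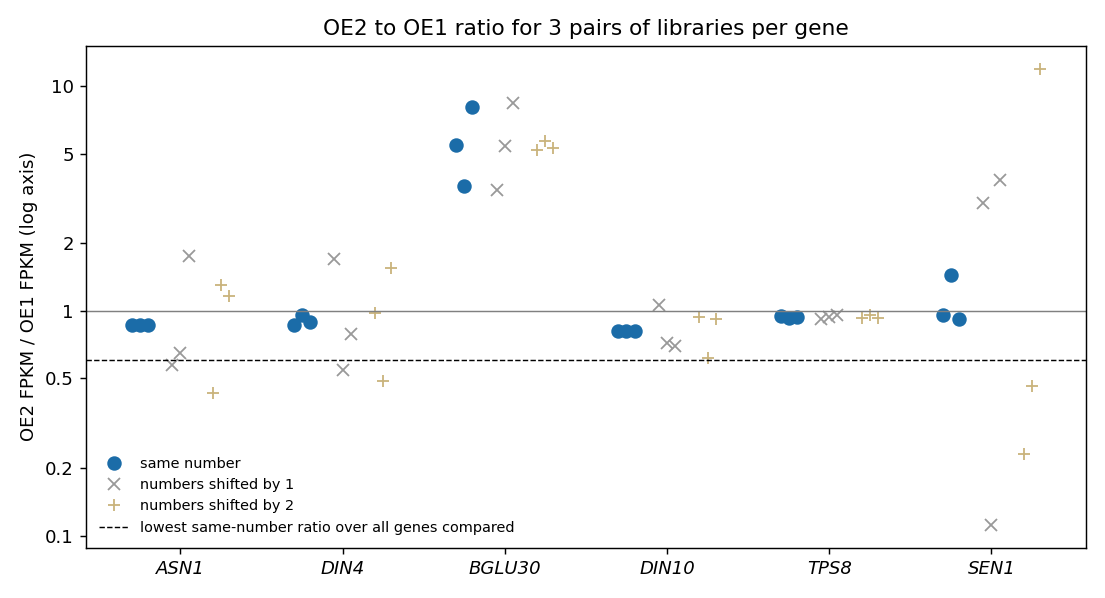
OE2 FPKM divided by OE1 FPKM (log axis) for each of the 6 genes, with libraries paired by the same replicate number (filled circles) and with the numbers shifted by 1 or 2 (crosses and plus signs). The same-number ratios of ASN1 and DIN10 lie on top of each other near 0.867 and 0.810, while with shifted numbers the largest ASN1 ratio was 3.04 times the smallest; the dashed line is the lowest same-number ratio over the 18111 genes above 0 FPKM in these libraries, 0.601.

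Among 13 other tested genes induced by sugar starvation, 1 rose and 1 fell in OE2 against tt19-8, where 19% of all tested genes were called, and the median log2 change was -0.42. GDH1, a glutamate dehydrogenase that returns carbon skeletons from glutamate, averaged 17.2 ± 1.88 FPKM in OE2 and 13.5 ± 1.17 FPKM in OE1, against 11.8 ± 0.597 FPKM in tt19-8 (SD, n = 3 each). It rose in OE2 against tt19-8 by 0.50 ± 0.14 (limma adjusted p = 0.0373). ATL8, a RING-type ubiquitin ligase, averaged 6.17 FPKM in OE2 and 8.33 FPKM in OE1, against 10.1 FPKM in tt19-8, and fell in OE2 by 0.61 ± 0.16 on the log2 scale (limma adjusted p = 0.0268). With median-ratio scaling ATL8 did not pass (limma adjusted p = 0.0955). SIP2, a raffinose-hydrolysing relative of DIN10, averaged 120 FPKM in OE2 and 126 FPKM in OE1, against 171 FPKM in tt19-8 and missed the threshold (log2 change -0.49 ± 0.17, limma adjusted p = 0.0618). KMD1, an F-box protein gene, had a log2 change of -0.63 ± 0.22 (limma adjusted p = 0.0700). Without replicate 3 of tt19-8 both fell in OE2, SIP2 by 0.66 (limma adjusted p = 0.00368) and KMD1 by 0.89 on the log2 scale (0.00334), in a fit that called 32.8% of all tested genes. SIP2 also passed with the replicate block over 9 libraries (0.0448), in a fit that called 4872 of 18232 tested genes.

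In the breakdown of branched-chain amino acids, the pathway of DIN4, 1 of 14 tested genes rose and 1 fell in OE2 against tt19-8. Over all tested genes 4.5% rose and 14.5% fell there. IVD, the isovaleryl-CoA dehydrogenase that follows the keto acid dehydrogenase in leucine breakdown, averaged 4.08 ± 0.171 FPKM in OE2 and 1.95 ± 0.476 FPKM in OE1, against 1.79 ± 0.32 FPKM in tt19-8 (SD, n = 3 each). It rose by 0.87 ± 0.17 (limma adjusted p = 0.0114), a call that ended without OE2 replicate 1 (limma adjusted p = 0.0547). E1A2 (AT5G09300), an alpha subunit of the same E1 component as DIN4, averaged 11.5 FPKM in OE2 and 14.9 FPKM in OE1, against 25.2 FPKM in tt19-8, and fell by 1.03 ± 0.24 on the log2 scale (limma adjusted p = 0.0194). The median of the pathway was -0.14, close to that of all genes, and it was 0.08 with median-ratio scaling.

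Of 7 tested SnRK1 kinase and bZIP genes, 3 fell in OE2 against tt19-8 and 0 rose, with a median log2 change of -0.55. Over all tested genes 14.5% fell and 4.5% rose there, and the median was -0.18. KIN10, a catalytic subunit, averaged 27.0 ± 0.739 FPKM in OE2 and 39.7 ± 1.32 FPKM in OE1, against 81.6, 99.4 and 43.7 FPKM in tt19-8. Every OE2 and OE1 library was below every tt19-8 library, as for 27.7% of all tested genes in OE2 and 13.3% in OE1. The third tt19-8 library was far below the other 2. KIN10 fell in OE2 against tt19-8 by 1.36 ± 0.25 on the log2 scale (limma adjusted p = 0.00914), and passed in all 17 alternative fits. SNF4, the activating subunit, averaged 42.5 ± 3.39 FPKM in OE2 and 60.8 ± 5.46 FPKM in OE1, against 88.8 ± 24.2 FPKM in tt19-8 (SD, n = 3 each), and fell by 1.01 ± 0.19 on the log2 scale (limma adjusted p = 0.0103), also in all 17. KIN11, the other catalytic subunit, averaged 20.8 FPKM in OE2 and 25.4 FPKM in OE1, against 36.2 FPKM in tt19-8, and fell by 0.75 ± 0.22 on the log2 scale (limma adjusted p = 0.0372), but not with median-ratio scaling (0.0864). KINBETA2, a scaffold subunit, had a log2 change of -0.55 ± 0.20 (limma adjusted p = 0.0749), and without replicate 3 of tt19-8 it was -0.79 and passed (0.00378). In OE1 against tt19-8, 0 of the 7 genes passed, where 0.0165% of all tested genes did. Without replicate 3 of tt19-8, 3 passed, all lower, in a fit that called 17.2% of all tested genes. Of the bZIP factors, BZIP1, BZIP2, BZIP11 and BZIP53 are listed at 0 in all 9 libraries. A listed 0 does not tell a gene without RNA from a gene that was not counted. BZIP63 averaged 5.86 FPKM in OE2 and 5.86 FPKM in OE1, against 4.51 FPKM in tt19-8, with a log2 change of 0.31 ± 0.17 in OE2 against tt19-8 (limma adjusted p = 0.209).

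In OE2 against tt19-8, 14.5% of all tested genes fell and 4.5% rose. In the list of 8 tested trehalose phosphate genes, which holds relatives of TPS8 and the trehalase gene TRE1, 1 fell there and 0 rose. This was TPS1, the catalytically active synthase, which averaged 22.6 FPKM in OE2 and 28.0 FPKM in OE1, against 35.0 FPKM in tt19-8 (log2 change -0.60 ± 0.14, limma adjusted p = 0.0169). It did not pass with median-ratio scaling (0.0901). The class II genes TPS10 and TPS9 had log2 changes of -0.41 ± 0.17 and -0.42 ± 0.19 and did not pass (limma adjusted p of 0.104 and 0.144). Both paralogs of ASN1 fell in OE2 against tt19-8. ASN3 averaged 18.7 FPKM in OE2 and 21.7 FPKM in OE1, against 31.6 FPKM in tt19-8 (-0.69 ± 0.18, limma adjusted p = 0.0276). ASN2 averaged 16.1 FPKM in OE2 and 19.7 FPKM in OE1, against 24.2 FPKM in tt19-8 (-0.54 ± 0.17, limma adjusted p = 0.04996), at the edge of the threshold, and neither passed with median-ratio scaling. ASN1 was thus the lowest of the 3 asparagine synthetase genes in these fed seedlings on the FPKM scale. Of the 3 tested raffinose synthase relatives of DIN10, 0 passed by limma in OE2 against tt19-8, and SIP2 was the 1 with an unadjusted p below 0.05.

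Genes that sugar is known to induce were lower in OE2 where they were called, as DIN10 was. Of 8 tested, 3 fell and 0 rose in OE2 against tt19-8, and the median log2 change was -0.60. Over all tested genes 14.5% fell and 4.5% rose in that comparison, with a median of -0.18. BAM5, a beta-amylase, averaged 36.2 FPKM in OE2 and 31.7 FPKM in OE1, against 97.3 FPKM in tt19-8, and fell in OE2 by 1.45 ± 0.36 on the log2 scale (limma adjusted p = 0.0243). Its log2 change in OE1 against tt19-8 was -1.64 ± 0.36 and did not pass (limma adjusted p = 0.175), but without replicate 3 of tt19-8 it was -1.79 and passed (0.0279). The sucrose synthases SUS4 and SUS1 fell in OE2 by 0.72 ± 0.19 and 0.62 ± 0.19 on the log2 scale (limma adjusted p of 0.0290 and 0.0480), and neither passed with median-ratio scaling. BAM5 passed with that scaling in OE2 against tt19-8 (-1.21, limma adjusted p = 0.0451). Of 5 tested senescence markers 1 rose in OE2 against tt19-8, beside 4.5% of all tested genes, and the median was 0.55. NYE1, which removes magnesium from chlorophyll, averaged 4.03 ± 0.503 FPKM in OE2 and 2.02 ± 0.774 FPKM in OE1, against 1.60 ± 0.278 FPKM in tt19-8 (SD, n = 3 each), a log2 change of 0.95 ± 0.21 (limma adjusted p = 0.0174). SAG21, a late embryogenesis abundant protein gene, averaged 57.4 FPKM in OE2 and 39.3 FPKM in OE1, against 38.4 FPKM in tt19-8 and did not pass (0.55 ± 0.19, limma adjusted p = 0.0695), but it passed with median-ratio scaling (0.80, 0.0143). SAG12, the cysteine protease most used as a marker of leaf senescence, is listed at 0 in all 9 libraries.

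The lists share genes, so the same gene can count in several of them. SIP2 is also among the raffinose synthase relatives, and BCE2 is in the starvation-induced and branched-chain lists. TPS9, TPS10 and TPS11 are in the starvation-induced and trehalose phosphate lists. Against tt19-8 and with all libraries, OE1 gave 0 limma calls in these lists, where 0.0165% of all tested genes were called. Without replicate 3 of tt19-8, where 17.2% of all tested genes were called, OE1 was lower for 2 of 13 starvation-induced genes, 2 of 14 genes of branched-chain amino acid breakdown, 3 of 7 SnRK1 and bZIP genes, 2 of 8 trehalose phosphate genes, 2 of 8 sugar-induced genes, 1 of 2 ASN1 paralogs and 1 of 3 raffinose synthase relatives. It was higher there for 1 trehalose phosphate gene and 1 senescence marker. The same omission took the OE2 calls to 1 higher and 4 lower of the starvation-induced genes, 1 higher and 3 lower of the branched-chain genes, 4 lower of the SnRK1 and bZIP genes, 2 lower of the trehalose phosphate genes and 5 lower of the sugar-induced genes. That fit called 32.8% of all tested genes. With all libraries, 19% of all tested genes had an unadjusted p below 0.05 in OE1 against tt19-8. At that p the 13 starvation-induced genes had 1 higher and 4 lower in OE1 and the 14 genes of branched-chain amino acid breakdown had 1 lower. At the same unadjusted p, 2 of 7 SnRK1 and bZIP genes, 2 of 8 trehalose phosphate genes, 1 of 8 sugar-induced genes, 1 of 2 ASN1 paralogs and 1 of 3 raffinose synthase relatives were lower in OE1, and 1 of 5 senescence markers was higher. OE2 against OE1, without a replicate block, also gave 0 limma calls in these lists, with 11.7% of all tested genes at an unadjusted p below 0.05. There 2 branched-chain genes and 2 senescence markers were higher at the unadjusted p, and IVD came nearest to the threshold (log2 change 0.79, limma adjusted p = 0.0564). IVD (0.89, 0.0136) and NYE1 (0.86, 0.0476) passed with median-ratio scaling, and without replicate 3 of tt19-8 IVD (0.79, 0.0484) was higher and KIN10 (-0.54, 0.0437) lower. With the replicate block on these 2 groups alone, 1 starvation-induced gene was higher and 8 of 13 were lower, and 2 branched-chain genes were higher and 8 of 14 lower. In that fit, which called 66.5% of all tested genes, 5 of 7 SnRK1 and bZIP genes were lower, 1 trehalose phosphate gene was higher and 5 of 8 lower, 1 sugar-induced gene was higher and 2 of 8 lower, and 3 senescence markers were higher and 1 of 5 lower. Both ASN1 paralogs and 1 of 3 raffinose synthase relatives were lower in it. The replicate block over all 9 libraries gave 0 calls in these lists.

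Many of the list calls in OE2 against tt19-8 ended when 1 library was left out, with the direction kept. Leaving out any OE2 replicate, or replicate 1 or 2 of tt19-8, took the calls over all genes to between 738 and 1668, against 3467 with all libraries, and ended the calls of ATL8, GDH1, KIN11, SUS4, SUS1, ASN2 and ASN3. OE1 libraries, which share in the estimate of spread, also ended a call when left out, replicate 1 for GDH1, replicate 1 or 3 for SUS1 and any replicate for ASN2. The call of TPS1 ended without OE2 replicate 1 or 3 or tt19-8 replicate 1 or 2, that of BAM5 without OE2 replicate 1 or 2 or tt19-8 replicate 1 or 2, that of NYE1 without OE2 replicate 1 or 3 or tt19-8 replicate 1, and that of E1A2 without OE2 replicate 3 or tt19-8 replicate 1 or 2. With 1 library left out at a time, the log2 change ran from -0.76 to -0.52 for ATL8, from 0.45 to 0.59 for GDH1, from -0.90 to -0.53 for KIN11, from -0.91 to -0.56 for SUS4, from -0.77 to -0.45 for SUS1, from -0.71 to -0.43 for ASN2 and from -0.91 to -0.54 for ASN3. It ran from -0.69 to -0.54 for TPS1, from -1.78 to -1.20 for BAM5, from 0.90 to 1.04 for NYE1 and from -1.26 to -0.81 for E1A2. Over all alternatives the highest limma adjusted p was 0.0955 for ATL8, 0.139 for GDH1, 0.130 for KIN11, 0.104 for SUS4 and 0.175 for SUS1. It was 0.171 for ASN2, 0.0952 for ASN3, 0.0901 for TPS1, 0.106 for BAM5, 0.0690 for NYE1 and 0.0722 for E1A2. ASN2 passed in 2 of 17 alternatives and SUS1 in 5 of 17.

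**Figure D4:**
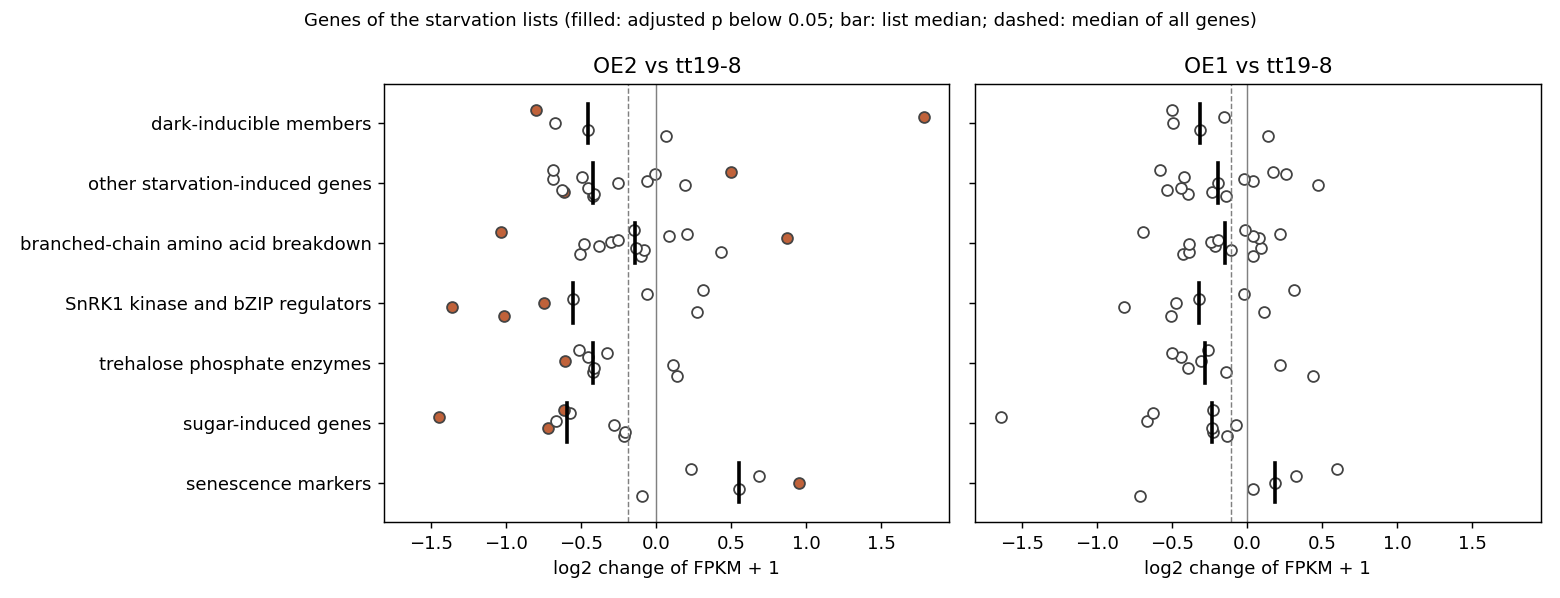
Limma log2 change of FPKM + 1 of each tested gene in 7 lists of the starvation response, in OE2 against tt19-8 (left) and OE1 against tt19-8 (right). Filled points have an adjusted p below 0.05, short vertical bars are list medians and the dashed line is the median of all tested genes (-0.18 left, -0.11 right); the filled point farthest right is BGLU30 and all filled points are in OE2.

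For each of the 6 genes, the tested genes with a mean of at least 5 FPKM whose log2(FPKM + 1) followed it most closely over the 9 libraries were looked up among about 12608 genes, as a description only, since 3 of the libraries are tied to 3 others. Nearest to ASN1 were FMA (AT3G24140, Pearson r = 0.985, Spearman rho = 0.983) and POK (AT1G71270, r = 0.982, rho = 1). Nearest to DIN4 were AT5G41190 (r = 0.990, rho = 0.933) and AT2G30270 (r = 0.987, rho = 0.950). DIN10 was followed most closely by LOX5 (r = 0.984, rho = 0.983), which averaged 4.55 FPKM in OE2 and 6.03 FPKM in OE1, against 8.38 FPKM in tt19-8, and by AT2G29210 (r = 0.984, rho = 0.967). BGLU30 was followed by ATGP4 (r = 0.963, rho = 0.867) and LEA18 (r = 0.963, rho = 0.717), and LEA18 had the same layout, with 11.9 FPKM in OE2 and 1.54 FPKM in OE1, against 1.70 FPKM in tt19-8. TPS8 was followed by AT2G48130 (r = 0.982, rho = 0.817) and AT5G11550 (r = 0.967, rho = 0.833), and SEN1 by GSTL2 (r = 0.995, rho = 0.933) and AT1G30320 (r = 0.985, rho = 0.867).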

How the data were processed

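RNA sequencing of 9 seedling libraries was deposited as 1 table of FPKM per library. HISAT 0.1.6, edgeR and the build TAIR10 are named without roles per the submitters' processing notes. Gene lengths, totals, strand and filters are not given in the sources used here. Of the identifiers, 32835 of 33602 matched the RefSeq annotation of TAIR10.1, which gave symbols, coordinates and the promoter windows.

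The deposited FPKM values were taken as log2(FPKM + 1) for 18232 genes that reached 1 FPKM in 3 or more libraries; 15370 were not tested. Limma 3.58.1 (R 4.3.3) was fitted to all 9 libraries with a term per group, eBayes with trend and robust, and two-sided p-values were adjusted by Benjamini-Hochberg over all tested genes of a comparison, with a threshold of 0.05. The fit was tested on simulated data drawn as 9 independent libraries, so that test did not cover the tie between OE2 and OE1. The p-values of the fit do not allow for that tie either. Python 3.11.15, pandas 2.3.3 and matplotlib 3.10.9 made tables and plots. Fragment totals came from low values of single-exon genes in OE1 and tt19-8 (whole within 0.1 fragment for 57.8% to 62.4% of values), and counting errors and floors cover counting only. Same-numbered OE2 and OE1 libraries were paired, since their deviations correlated at 0.953, 0.959 and 0.957; pairs with tt19-8 gave -0.06 to 0.04. Alternatives were another pseudocount, other filters, median-ratio scaling, only the 2 groups compared, replicate blocks, eBayes without trend and robust, and each library left out.

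The 6 genes and all lists were chosen with earlier results of these data known. Named were the 6 genes, TT19, list genes past the threshold with up to 2 more per list by adjusted p in OE2 against tt19-8, and the 2 genes most like each of the 6.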

Additional observations from a re-analysis of the deposited data

Results flagged for a closer look

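The change of BGLU30 against tt19-8 differed between the overexpressing lines. It was 1.78 in OE2 and -0.15 in OE1 on the log2 scale, and the difference of 1.94 was itself tested as OE2 against OE1 (limma adjusted p = 0.00331). All 3 OE2 libraries were above all 3 OE1 libraries, as for 7.04% of all tested genes, and 1.39% were called higher. That p-value does not allow for the tie between OE2 and OE1. The same-number ratios of OE2 to OE1 were 5.46, 3.57 and 8.03 and did not share the near-constant value that ASN1 and DIN10 showed. The cause of the difference was not tested.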

How the results depend on the processing

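BGLU30 rose in OE2 against tt19-8 and against OE1 in all 16 alternatives that tested it, with log2 changes of 1.59 to 2.16 and 1.76 to 2.37. The filter of a mean of at least 5 FPKM left out BGLU30 and TPS8, and SEN1 was not tested there either. Of the 6 genes, those still tested gave 1 call in OE2 against tt19-8, beside 2993 genes in all. They gave 0 calls in OE2 against OE1, beside 38 genes in all. With median-ratio scaling 1 of the 5 genes tested of the 6 was called in OE2 against tt19-8. There 2167 genes (11.9% of all tested genes) passed in place of 3467. Leaving out 1 library gave 738 to 5973 of 18232 tested genes in OE2 against tt19-8, with 1 to 2 of the 5. It gave 0 to 3136 genes in OE1 against tt19-8, with 0 to 1 of the 5, and 104 to 464 genes in OE2 against OE1. The highest gene count of each range came without tt19-8 replicate 3. OE1 against tt19-8 gave 3 genes, against 0 with a pseudocount of 0.1 FPKM, with a mean of at least 5 FPKM and with only the 2 groups compared, and 16 with the replicate block over 9 libraries or 5 with it on the 2 groups. OE2 against OE1 gave 260 genes, against 146 with a pseudocount of 0.1 FPKM and 535 with no filter. It gave 38 with a mean of at least 5 FPKM and 436 with median-ratio scaling. The replicate block on the 2 groups gave 12118 (66.5% of all tested genes), with 4 of the 5. Over 9 libraries the block gave 334, with 1 of the 5. With the replicate block over 9 libraries ASN1 was called lower in OE2 against tt19-8 (-0.67, limma adjusted p = 0.0304). That fit called 4872 of 18232 tested genes. Directions that had not passed turned for TPS8 in OE2 against OE1 with median-ratio scaling (0.0206). With 1 library left out, the log2 change ran from -0.352 to 0.0763 for BGLU30 in OE1 against tt19-8, and in OE2 against OE1 from -0.412 to 0.0495 for ASN1 and from -0.404 to 0.0897 for DIN4. The cause was not tested. On the 2 groups alone, the replicate block also changed the calls of ASN1, DIN10 and TPS8 in OE2 against OE1. It changed no other call of the 6 genes. Where a library left out leaves 2, limma takes the spread from all groups. Depth of OE2 is unknown, and SEN1 rests on about 3 to 43 fragments in OE1 and tt19-8.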
